A study of Ovis aries with 16 samples.

Results

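The 7 transcripts described here are those that the study printed for 2 pathways, PI3K-Akt signaling and Focal adhesion, after comparing male fetuses with and without growth restriction. They are 7 of the 17291 transcripts that reached at least 1 TPM (an abundance scaled to transcript length and to the total of the library) in at least 3 of 16 libraries of fetal sheep perirenal fat. Of the 7, 6 were printed for both pathways, and ENSOART00020023677 was printed for PI3K-Akt signaling alone. ENSOART00020019023 and ENSOART00020027189 were also printed for Diabetic cardiomyopathy, a list the study drew from its comparison of male and female controls, and are called the pair below. No source used here ties these identifiers to genes, so no gene name or role is given to a single member.

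PI3K is a lipid kinase that is switched on by growth factor receptors, the insulin receptor and integrins. The lipid it makes recruits the kinase Akt to the membrane, and Akt promotes glucose uptake, protein synthesis and cell survival. In adipose tissue this route carries the insulin signal and is needed for precursor cells to become adipocytes. Focal adhesions are the sites where integrins tie the extracellular matrix to the actin skeleton of the cell. The pathway lists overlap because matrix proteins, integrins and growth factor receptors act at the start of both. THY1, also known as CD90, is a surface protein of preadipocytes and other stromal cells.

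Perirenal adipose tissue came from near-term singleton fetuses of Columbia-Rambouillet crossbred ewes, with 4 fetuses in each of 4 groups and 1 library per fetus. Growth-restricted males (MFGR) and growth-restricted females (FFGR) came from ewes kept at elevated ambient temperature in gestation, a treatment that impairs the placenta. Control males (MC) and control females (FC) came from ewes kept at thermoneutral temperature and pair-fed to the heated ewes. Since growth restriction was brought about by heat, direct effects of heat and effects of the placenta cannot be told apart in these groups. The libraries were made from whole tissue, so fewer cells of a type and less RNA per cell cannot be told apart either.

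The deposited values were TPM, which sum to 1000000 in every library, so the depth behind each value is unknown. Markers of the labelled tissue were present in every library. ADIPOQ, the adipokine adiponectin, lay at 1741 to 3293 TPM, FABP4, a fatty acid carrier of adipocytes, at 1416 to 10369 TPM, and UCP1, the uncoupling protein of brown fat, at 1317 to 4430 TPM. All 7 members were at or above 1 TPM in all 16 libraries, and the lowest value was 1.01 TPM. Together they made up 0.0135% to 0.0843% of the TPM of a library. The pair carried most of it, 57.4% to 85.6% of the summed TPM of the 7.

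The members differed widely in abundance. Over the 16 libraries the median was 173 TPM for ENSOART00020027189 and 159 TPM for ENSOART00020019023, and these neighbours did not differ beyond their spread. ENSOART00020022567 followed with a median of 64.6 TPM and ENSOART00020015518 with 21.1 TPM. The ranges of these neighbours overlapped, but within every library ENSOART00020022567 lay above ENSOART00020015518. The remaining members were low, with medians of 7.32 TPM for ENSOART00020023097, 4.16 TPM for ENSOART00020023677 and 2.32 TPM for ENSOART00020015098. The pair was the most variable, with an 8.37-fold range between libraries for ENSOART00020027189 and an 8.31-fold range for ENSOART00020019023. The ratio of ENSOART00020019023 to ENSOART00020027189 stayed between 0.782 and 1.42 in the same libraries.

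**Figure D1:**
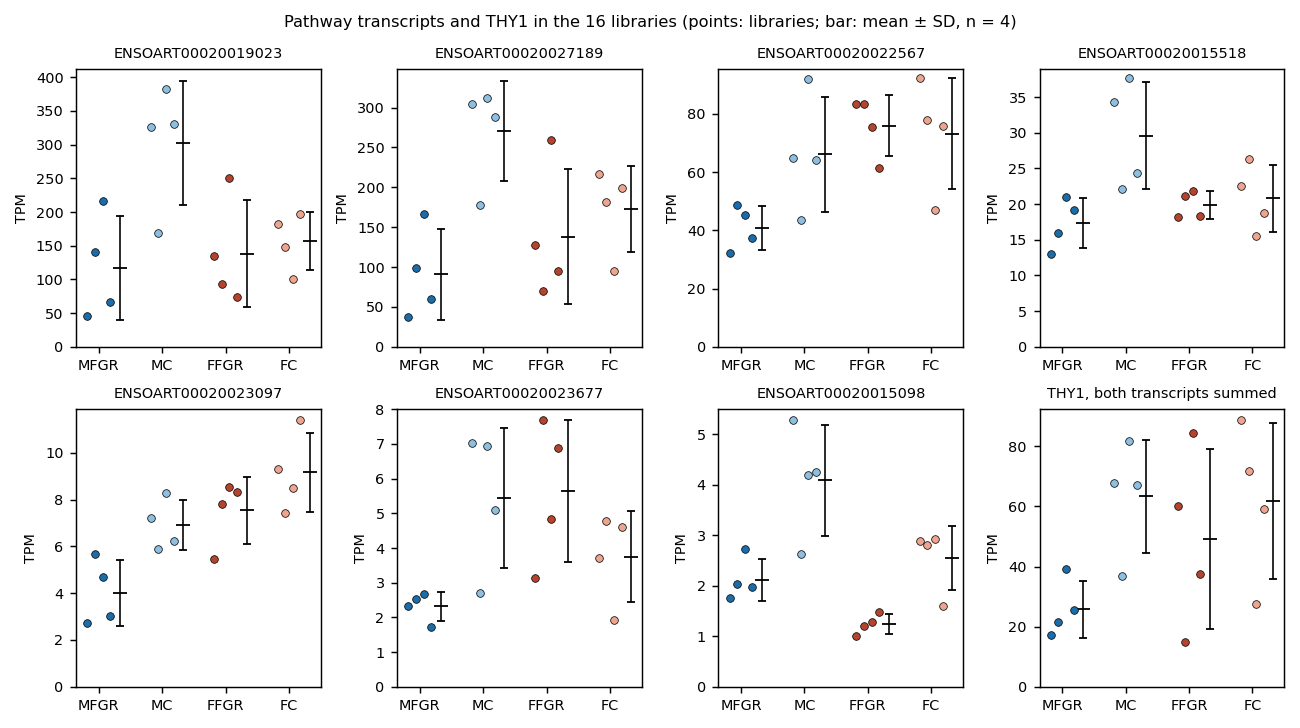
TPM of each member and of THY1 (both transcripts summed) in the 16 libraries, on axes that start at 0; points are libraries and bars are the mean ± SD of 4. MFGR had the lowest mean for 6 of the 7 members, and FFGR had the lowest for ENSOART00020015098.

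In males, all 7 members lay lower in MFGR than in MC on average. This is the comparison on which the study chose them, and it printed both pathways as downregulated in MFGR, so the direction was fixed by the choice. The values and counts of this comparison describe the members and test nothing. The pair differed most. ENSOART00020027189 had 37.3, 99.1, 167 and 60.2 TPM in MFGR, against 304, 178, 312 and 288 TPM in MC. The groups did not overlap, and the mean was 2.98-fold lower in MFGR. ENSOART00020019023 had 46.0, 140, 216 and 66.9 TPM in MFGR, against 326, 169, 382 and 330 TPM in MC. Here the third MFGR library lay above the second MC library, and the mean was 2.57-fold lower in MFGR.

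The other 5 members differed less between the male groups. ENSOART00020022567 had 32.2, 48.6, 45.4 and 37.3 TPM in MFGR, against 64.9, 43.6, 91.9 and 64.2 TPM in MC, and the groups overlapped at the second MC library. ENSOART00020015518 had 13.0, 15.97, 21.0 and 19.2 TPM in MFGR, against 34.3, 22.1, 37.6 and 24.3 TPM in MC. Its groups did not overlap, although the third MFGR and the second MC library lay close together. ENSOART00020023097 had 2.71, 5.67, 4.71 and 3.00 TPM in MFGR, against 7.22, 5.88, 8.29 and 6.25 TPM in MC. ENSOART00020023677, the one printed for PI3K-Akt signaling alone, had 2.33, 2.52, 2.68 and 1.73 TPM in MFGR, against 7.02, 2.71, 6.94 and 5.10 TPM in MC. Neither of these overlapped, but for both the margin between the groups was narrow. ENSOART00020015098 had 1.76, 2.03, 2.72 and 1.98 TPM in MFGR, against 5.28, 2.62, 4.19 and 4.26 TPM in MC, and its groups overlapped. The mean of these 5 was 1.62-fold to 2.35-fold lower in MFGR, with ENSOART00020022567 at the low end and ENSOART00020023677 at the high end.

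On the log2(TPM + 1) scale, which understates the difference of low transcripts, the MFGR minus MC estimates ran from -1.74 (SE 0.44) for ENSOART00020027189 to -0.65 (SE 0.23) for ENSOART00020022567. The median of the 7 was -0.73, beside a median of -0.09 over all 17291 transcripts, of which 62.8% were below 0. For 4 of the 7 members every MFGR library lay below every MC library, where 3.9% of all transcripts were lower without overlap and 6.11% did not overlap in either direction. At an adjusted p under 0.05 in limma, 0 of the 7 members and 0.0463% of all transcripts were called. All 7 members had an unadjusted p under 0.05, as had 1873 of all transcripts. Nothing is read from these counts, since the members were chosen on these libraries.

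Single libraries set much of the spread. The second MC library was the lowest MC library for all 7 members, and the first MFGR library was the lowest of the 8 male libraries for 6 of 7. These libraries also differed in scale over all transcripts. The median-of-ratios scaling factor was 0.854 in the second MC library and 1.24 in the third, the lowest and highest of MC. It was 0.869 in the first and 0.827 in the fourth MFGR library. Without the second MC library the estimate was -1.93 for ENSOART00020027189 and -1.15 for ENSOART00020023677. Without the third MFGR library, the highest of its group for both members of the pair, it was -2.10 for ENSOART00020027189 and -1.92 for ENSOART00020019023. THY1 was also lower in MFGR on average, and of the adipocyte markers FABP4 was higher. THY1, both transcripts summed, had 17.4, 21.5, 39.2 and 25.4 TPM in MFGR, against 67.7, 36.9, 81.7 and 67.3 TPM in MC, and the second MC library was again the lowest of its group. FABP4 averaged 6015 ± 2962 TPM in MFGR and 2445 ± 1140 TPM in MC (SD, n = 4 each), and it was lowest in the third MC library. Its male groups overlapped, as did those of the other adipocyte markers. For these, the MFGR to MC ratio of means was 0.874 for ADIPOQ, 0.941 for summed CIDEA and 1.13 for UCP1. It was 0.825 for leptin and 0.758 for HOXC9, both markers of white fat. TCF21, another white fat marker, was printed by the study as lower in MFGR. It was left out here because its printed identifier, ENSOART00020036602, is also printed for CIDEA. The 11 mitochondrial transcripts held 29.2% to 37.7% of the TPM in MFGR and 35.0% to 43.5% in MC. After they were removed and TPM rescaled, the estimates ran from -1.88 to -0.78, beside a median of -0.20 over all transcripts. The part of THY1-expressing cells and of adipocytes in the difference was not tested.

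In females, growth restriction gave no called member. The same test called none in males either, so the absence of a call in females does not set the sexes apart. The female comparison used libraries that the choice of the 7 did not use, apart from the pair, whose Diabetic cardiomyopathy list was drawn with the FC libraries. The limma variance of each transcript was shared by all 16 libraries, so the male libraries entered the standard errors and p-values. In a fit of the 8 female libraries alone, 0 members were called as well. At an adjusted p under 0.05 in limma, 0 of 7 members were called between FFGR and FC, where 0.0231% of all transcripts were called. At an unadjusted p under 0.05 there was 1 of 7 members, and 1033 of all transcripts. The median estimate of the 7 was -0.25, beside 0 over all transcripts, and 5 of the 7 estimates were below 0.

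ENSOART00020015098, the member of lowest abundance, was the one whose female groups did not overlap. It had 1.01, 1.21, 1.27 and 1.49 TPM in FFGR, against 2.89, 2.81, 2.92 and 1.61 TPM in FC. The mean was 1.24 ± 0.20 TPM in FFGR and 2.56 ± 0.64 TPM in FC (SD, n = 4 each), 2.06-fold lower in FFGR. An exact permutation test, two-sided, gave p = 0.0286, and no smaller value is possible with 4 libraries a group. The estimate on the log2(TPM + 1) scale was -0.65 (SE 0.19), close to its male estimate of -0.69 (SE 0.19), but the limma adjusted p over all transcripts was 0.559. It is 1 of 7 members without overlap, where 1.62% of all transcripts were lower in FFGR without overlap and 2.83% did not overlap in either direction.

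The pair showed no difference beyond its spread in females. ENSOART00020027189 had 128, 70.1, 260 and 94.7 TPM in FFGR, against 216, 182, 94.7 and 199.7 TPM in FC. ENSOART00020019023 had 135, 93.2, 251 and 74.1 TPM in FFGR, against 183, 148, 100.3 and 197 TPM in FC. For both, the third FFGR library lay above every FC library and the lowest FFGR library lay below every FC library. The estimates were -0.43 (SE 0.44, limma adjusted p = 0.961) for ENSOART00020027189 and -0.30 (SE 0.45, limma adjusted p = 0.971) for ENSOART00020019023. The standard errors are wide enough that these data do not separate no difference from a difference of the size seen for other members.

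The remaining members overlapped as well. ENSOART00020023677 had the highest estimate, 0.47 (SE 0.29, limma adjusted p = 0.909). It had 3.15, 7.70, 4.84 and 6.88 TPM in FFGR, against 3.71, 4.77, 1.93 and 4.62 TPM in FC, so 3 FFGR libraries lay above every FC library and 1 lay within the FC range. ENSOART00020022567 had 83.3, 83.5, 75.5 and 61.3 TPM in FFGR, against 92.3, 77.7, 46.9 and 75.6 TPM in FC, with an estimate of 0.08 (SE 0.23). ENSOART00020015518 had 18.2, 21.2, 21.9 and 18.3 TPM in FFGR, against 22.5, 26.3, 15.6 and 18.8 TPM in FC, with an estimate of -0.04 (SE 0.19). For both, the FFGR libraries lay close together inside the range of FC. ENSOART00020023097 had 5.45, 7.81, 8.55 and 8.31 TPM in FFGR, against 9.29, 7.42, 8.50 and 11.4 TPM in FC, with an estimate of -0.25 (SE 0.20). Exact permutation p-values of these 4 members and the pair lay between 0.20 and 0.80. The male estimate minus the female estimate ran from -1.38 (SE 0.41) for ENSOART00020023677 to -0.04 (SE 0.27) for ENSOART00020015098. This difference contains the male comparison that chose the members, so it is a description and its p-values are not used.

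**Figure D2:**
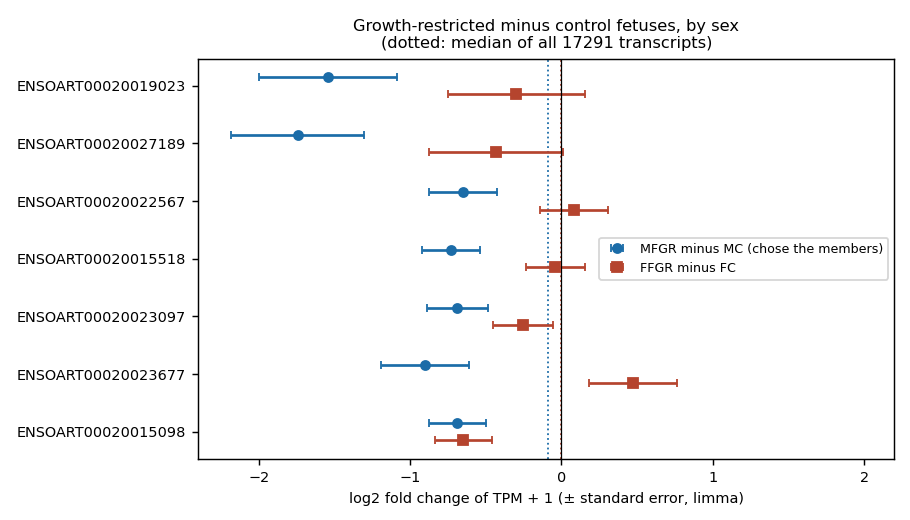
Estimated log2 fold changes of TPM + 1 with their standard errors for the 7 members, MFGR minus MC (circles) above FFGR minus FC (squares), with dotted lines at the median of all transcripts. The male estimates run from -1.74 to -0.65 and the female estimates from -0.65 to 0.47.

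Sex, averaged over both conditions, gave called differences for 3 of the 7 members. This difference is orthogonal to MFGR minus MC if the variances are equal, but the male libraries also chose the members. It contains MC minus FC, the comparison behind the Diabetic cardiomyopathy list of the pair, so for the pair it is a description. Of the 7, 42.9% were called in limma, beside 38.4% of all transcripts, a share near the background. ENSOART00020015098 was higher in males by 0.49 (SE 0.13, limma adjusted p = 0.00934) on the log2 scale, with 1.76 to 5.28 TPM over the MFGR and MC libraries and 1.01 to 2.92 TPM over the FFGR and FC libraries. ENSOART00020023097 was lower in males, with a difference of -0.57 (SE 0.14, limma adjusted p = 0.00482), and had 2.71 to 8.29 TPM in males and 5.45 to 11.4 TPM in females. ENSOART00020022567 was also lower in males, with a difference of -0.52 (SE 0.16, limma adjusted p = 0.0182), and had 32.2 to 91.9 TPM in males and 46.9 to 92.3 TPM in females. The male and female ranges of all 7 members overlapped, where 11.4% of all transcripts did not overlap between the sexes.

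The call for ENSOART00020022567 depended on the scaling of the libraries. The median male minus female difference of all transcripts was -0.11 as deposited and 0.11 after quantile normalization, and of the called transcripts 30.7% were higher in males as deposited and 60.7% after quantile normalization. Under quantile normalization, ENSOART00020022567 was no longer called, with -0.21 (limma adjusted p = 0.251), and ENSOART00020015518 was called, with 0.37 (limma adjusted p = 0.0347). As deposited, the difference for ENSOART00020015518 was 0.14 (SE 0.14, limma adjusted p = 0.466). The pair and ENSOART00020023677 were not called, with 0.30 (SE 0.32) for ENSOART00020019023, 0.02 (SE 0.31) for ENSOART00020027189 and -0.27 (SE 0.20) for ENSOART00020023677.

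Within the conditions the sex differences of 4 of the 7 members took opposite signs. These share the MC or MFGR libraries with the choice of the members and are given without a test. For the pair, MC minus FC is also the comparison from which its Diabetic cardiomyopathy list was drawn. For ENSOART00020019023 the estimate was -0.33 (SE 0.45) for MFGR minus FFGR and 0.92 (SE 0.45) for MC minus FC. For ENSOART00020027189 it was -0.64 (SE 0.44) for MFGR minus FFGR and 0.67 (SE 0.44) for MC minus FC. For ENSOART00020023677 it was -0.95 (SE 0.29) for MFGR minus FFGR and 0.42 (SE 0.29) for MC minus FC. For ENSOART00020015518 it was -0.21 (SE 0.19) for MFGR minus FFGR and 0.48 (SE 0.19) for MC minus FC. The other 3 members kept their sign. ENSOART00020015098 had 0.47 (SE 0.19) for MFGR minus FFGR and 0.51 (SE 0.19) for MC minus FC. ENSOART00020022567 had -0.88 (SE 0.23) for MFGR minus FFGR and -0.15 (SE 0.23) for MC minus FC, and ENSOART00020023097 had -0.79 (SE 0.20) for MFGR minus FFGR and -0.36 (SE 0.20) for MC minus FC.

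The members were then set against summed THY1 in the 8 female libraries. These did not enter the male comparison that chose the 7, but the FC libraries entered the Diabetic cardiomyopathy list on which the pair also stands. Summed THY1 had 60.1, 14.9, 84.5 and 37.4 TPM in FFGR, against 88.7, 71.7, 27.4 and 59.3 TPM in FC. The female groups overlapped widely, so the relation can hold differences between fetuses of the same group as well as any difference with growth restriction. Correlations were taken on log2(TPM + 1), and 7 such relations were computed.

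The pair followed THY1 in females. For ENSOART00020027189, Pearson's r was 0.929 (exact permutation p = 0.00057, two-sided, n = 8) and Spearman's rho was 0.905 (exact permutation p = 0.00456). Without the second FFGR and the third FC library, the libraries farthest from the median of THY1, r was 0.896. For ENSOART00020019023, r was 0.778 (exact permutation p = 0.0219, n = 8), rho was 0.738 (exact permutation p = 0.0458), and r was 0.861 without the same libraries. Of all other transcripts, 0.157% had an r at least as high as that of ENSOART00020027189 and 2.54% an r at least as high as that of ENSOART00020019023. Neither passed when the slope on THY1 was tested over all transcripts. The slope was 0.72 (SE 0.11, limma adjusted p = 0.163) for ENSOART00020027189 and 0.53 (SE 0.16, limma adjusted p = 0.336) for ENSOART00020019023. At an adjusted p under 0.05, 0 of 7 members were called in limma, where 0.0174% of all transcripts were called, the 2 THY1 transcripts among them. At an unadjusted p under 0.05 there were 2 of 7 members, and 1791 of all 17291 transcripts.

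For the other 5 members no relation with THY1 was detectable in 8 female libraries. For ENSOART00020015518, r was 0.421 (exact permutation p = 0.303, n = 8) and rho was 0.619 (exact permutation p = 0.115). For ENSOART00020022567, r was 0.390 (exact permutation p = 0.341) and rho was 0.333 (exact permutation p = 0.428). These correlations were 0.647 for ENSOART00020015518 and 0.812 for ENSOART00020022567 without the second FFGR and the third FC library, so they depended on those libraries. With 1 female library left out in turn, r ran from 0.259 to 0.803 for ENSOART00020015518 and from 0.156 to 0.920 for ENSOART00020022567. Both were lowest without the third FC library. ENSOART00020015098, with r = 0.193 (exact permutation p = 0.646) and rho = 0.143 (exact permutation p = 0.752), and ENSOART00020023097, with r = 0.084 (exact permutation p = 0.838) and rho = 0.238 (exact permutation p = 0.582), lay close to 0. ENSOART00020023677 had the one negative value, r = -0.243 (exact permutation p = 0.557) and rho = -0.214 (exact permutation p = 0.619). It was -0.595 without the 2 farthest libraries, -0.785 without the third FC library alone and 0.323 without the second FFGR library alone. That FFGR library had the lowest THY1 of all 16 and the highest ENSOART00020023677, 7.70 TPM.

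**Figure D3:**
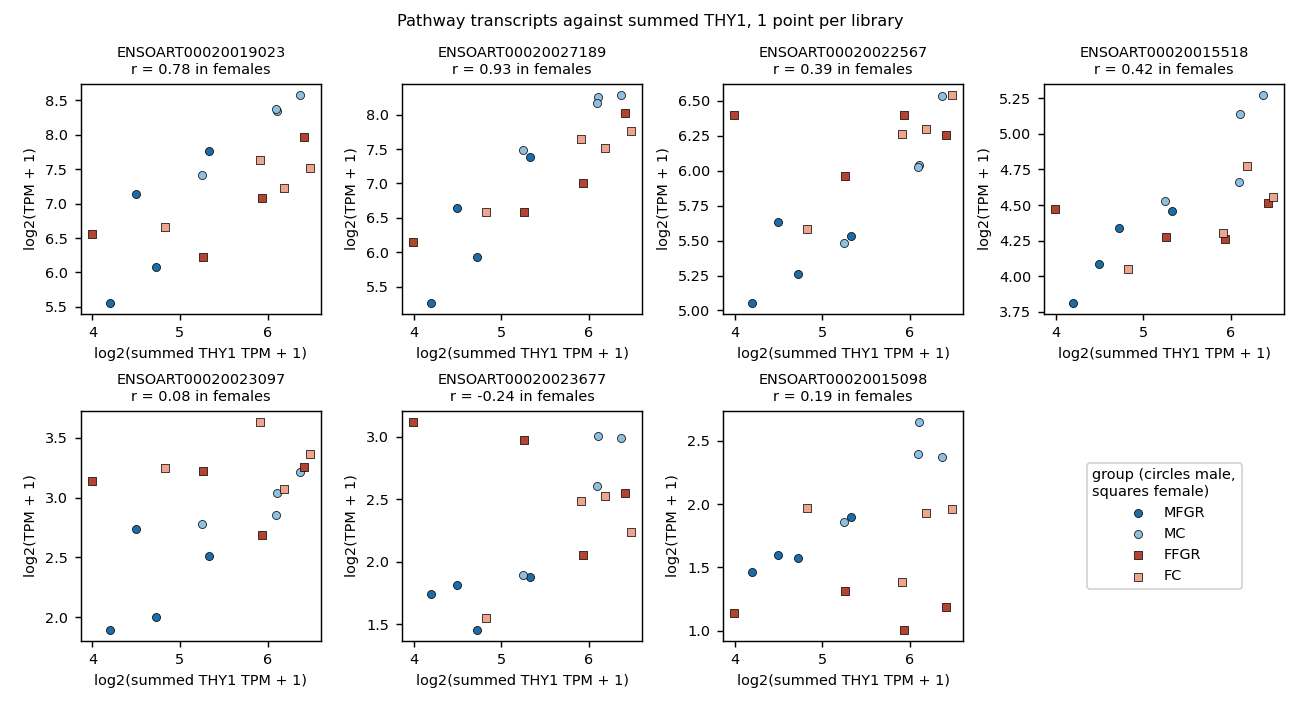
Each member against summed THY1, both as log2(TPM + 1), with 1 point per library, circles for males and squares for females. In females the 2 most abundant transcripts follow THY1 with r of 0.78 and 0.93, and the other 5 have r between -0.24 and 0.42.

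In the 8 male libraries all 7 members followed THY1. There r lay between 0.827 for ENSOART00020023097 and 0.954 for ENSOART00020015098, with a median of 0.923, beside a median of 0.344 over all other transcripts, of which 71.1% were above 0. These libraries chose the members and differ in THY1 between the groups, so the values are a description. In females the median of the 7 was 0.390, beside -0.03 over all other transcripts, of which 47.8% were above 0. When the group means were removed in all 16 libraries, r was 0.847 for ENSOART00020027189 and 0.717 for ENSOART00020019023. It was 0.540 for ENSOART00020022567 and 0.538 for ENSOART00020015518, and 0.126 to 0.259 for the 3 members of low abundance.

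**Figure D4:**
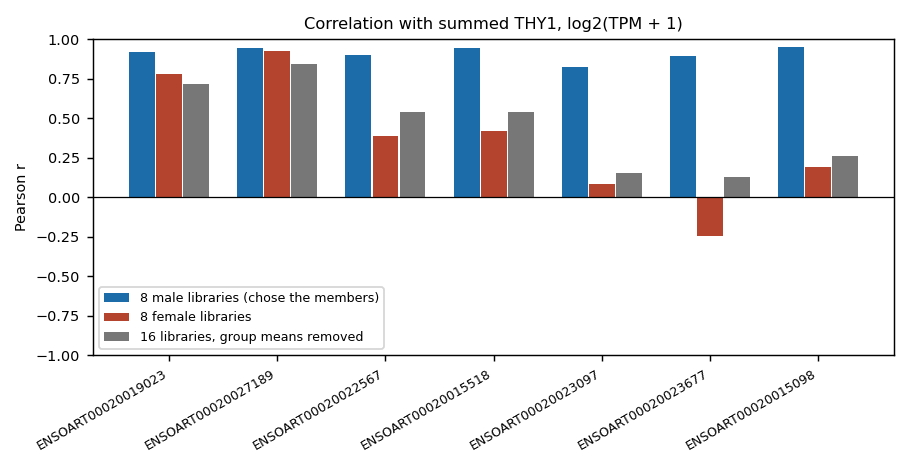
Pearson's r of each member with summed THY1 in the 8 male libraries, the 8 female libraries and all 16 libraries with group means removed. The male bars lie between 0.827 and 0.954, while the female bars run from -0.243 to 0.929.

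The abundance of the second THY1 transcript, ENSOART00020024873, differed between the sexes (limma adjusted p = 2.18e-05), while the first, ENSOART00020024826, did not pass the test (limma adjusted p = 0.0784). ENSOART00020024873 lay at 1.70 to 3.82 TPM in MFGR and 3.80 to 13.6 TPM in MC, against 8.40 to 49.0 TPM in FFGR and 16.5 to 48.3 TPM in FC. In females the correlation with ENSOART00020024826 alone was 0.937 for ENSOART00020027189 and 0.818 for ENSOART00020019023, and with ENSOART00020024873 alone 0.918 for ENSOART00020027189 and 0.749 for ENSOART00020019023. The relation of the pair with THY1 was seen with either transcript, but these are not independent in the female libraries. There the slope on summed THY1 was 0.99 (SE 0.06) for ENSOART00020024826 and 0.96 (SE 0.05) for ENSOART00020024873.

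The members also moved together more closely in males than in females, which is a description over libraries of which the males chose them. The correlation of a member with the mean of the other 6 lay between 0.908 and 0.955 in the 8 males. In the 8 females it was highest for ENSOART00020015518, 0.715, and lay at -0.022 for ENSOART00020023677 and -0.057 for ENSOART00020015098. In both sexes the pair lay above the members of low abundance, with 0.626 for ENSOART00020027189 and 0.561 for ENSOART00020019023 in females.

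The mean standardised profile of the 7 was compared with every other transcript over the 16 libraries, again as a description. The transcripts most like it were ENSOART00020034885 (r = 0.961), which the study printed for the Phagosome pathway, and ENSOART00020006829 (r = 0.939). Of the transcripts with a gene name, the THY1 transcript ENSOART00020024826 came first (r = 0.654), at rank 945 of 17284 transcripts. Next was ENSOART00020036602 of the lipid droplet protein CIDEA (r = 0.458, rank 3363), an identifier the study also printed for TCF21. After it came the THY1 transcript ENSOART00020024873 (r = 0.440, rank 3661), ADIPOQ (r = 0.367, rank 5010) and HOXC9, a marker of white fat (r = 0.357, rank 5175). Many transcripts without a gene name were thus closer to the profile than any with one. Summed THY1 gave r = 0.776. FABP4 ran opposite to the members, with r = -0.731.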

How the data were processed

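RNA of 16 fetal perirenal adipose samples was sequenced from Swift RNA libraries. The authors checked reads with FastQC 0.11.9, quantified them with Salmon against Ensembl transcripts of Oar_rambouillet_v1.0, and deposited TPM for 35219 transcripts, without read counts. The members and lists were chosen with earlier results of these data known. Transcripts reaching 1 TPM in 3 or more libraries (17291) were fitted with limma 3.58.1 under R 4.3.3, on the log2(TPM + 1) scale, with trended variance and 1 mean per group, and p-values were Benjamini-Hochberg adjusted over all of them. The fits were tested on simulated data. Single transcripts were tested with exact permutation tests (numpy 2.4.6, with ranks from scipy 1.17.1). All 7 printed transcripts were named, with THY1, the adipocyte markers except TCF21, and the most similar transcripts (up to 5 with and 2 without a gene name). Alternatives were other pseudocounts, filters, scalings, library weights, blocks and libraries left out. The labels name no batch. The reference at hand shares no identifiers with the table, so planned lists of other pathway genes and cell types, and sequences, were not used here.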

Additional observations from a re-analysis of the deposited data

Results flagged for a closer look

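The fourth FC library stood apart from the other FC libraries for ENSOART00020015098, with 1.61 TPM where the others lay between 2.81 and 2.92 TPM. The gap to the nearest library was 0.912 of the range of the group. Of 40 groups of 4 libraries examined, 1 had such a library, and chance alone gives about 1 in 20. This library lay next to the FFGR range of 1.01 to 1.49 TPM. Without it, the FFGR minus FC estimate for ENSOART00020015098 was -0.79, against -0.65 with it.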

How the results depend on the processing

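No member was called between FFGR and FC, or for the slope on THY1 in females, under any of the alternatives run (0 to 0 called when each library was left out in turn). The sex count was 3 to 3 with a library left out and 1 at a filter of 20 TPM in 3 libraries, where only 4 members could be tested and 2622 of all 4574 transcripts were called. The MFGR against MC count was 0 to 0 with a library left out and 3 with library weights (ENSOART00020015098, ENSOART00020015518 and ENSOART00020027189), where 255 of all 17291 transcripts were called. All 7 MFGR minus MC estimates stayed below 0 in every alternative. The FFGR minus FC estimate of ENSOART00020015098 was -0.96 to -0.56 over 24 alternatives, with limma adjusted p of 0.311 to 0.901. The limma adjusted p of the THY1 slope of ENSOART00020027189 lay between 0.0793 and 0.327.

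Over all transcripts, MFGR against MC gave 8 calls as deposited, 0 without the first and 120 without the second MC library, 126 without mitochondrial transcripts, 24 at the 20 TPM filter, and 31 with median-of-ratios scaling. FFGR against FC gave 4 calls, and 0 to 23 over the alternatives. Males were higher in 30.7% of sex calls as deposited, 46.3% after median-of-ratios scaling and 60.7% after quantiles were equalised. Replicate numbers did not pair the libraries: same-numbered deviations of FFGR and FC correlated at -0.053 to 0.117, and those of MFGR and MC at -0.083 to 0.090, and not every library matched its own number best. With the replicate block, 0 members were called for FFGR against FC, 3 for sex and 0 for MFGR against MC, and 1, 6527 and 4 transcripts overall. The causes of these shifts were not tested. Without read counts, the counting error of the 3 members of low abundance cannot be given.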

Other observations

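FABP4 and ADIPOQ, both adipocyte markers, stood in different relation to THY1 in males, while in females this depended on 2 libraries. In males the correlation with summed THY1 was -0.949 for FABP4 and 0.504 for ADIPOQ, and in females it was -0.301 for FABP4 and 0.760 for ADIPOQ (n = 8 libraries each). Without the second FFGR and the third FC library, the female values were 0.184 for FABP4 and 0.151 for ADIPOQ. ENSOART00020019023 per unit of summed THY1 was 2.63 to 6.54 in MFGR and 4.58 to 4.91 in MC, and 1.98 to 6.25 in FFGR and 2.06 to 3.66 in FC. Relative to THY1, this member was thus most even among the 4 MC libraries. ENSOART00020027189 per unit of summed THY1 was 2.15 to 4.61 in MFGR and 3.82 to 4.82 in MC, and 2.13 to 4.70 in FFGR and 2.44 to 3.46 in FC.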
